A study of Mus musculus with 6 samples.

Results

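Chromosome 13 of the mouse carries genes of many kinds, and those transcribed in a cell share little beyond their place on the same DNA molecule. It holds the large cluster of replication-dependent histone genes, the genes for the neuropeptide Cartpt and the LIM homeodomain factor Isl1, and genes of mitochondria, ribosome assembly, vesicle traffic and DNA repair. Many of them are read from promoters of their own, and neighbours on a chromosome are often regulated apart from each other.

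The 407 genes described here are the expressed genes of chromosome 13, of 732 genes of that chromosome with a probe set and of 19937 genes on the array with a named probe set. They were chosen by level: the mean log2 signal of the brightest probe set over the 6 arrays had to lie above 7.74, the median of all values. The chromosome itself was selected on the MTT minus MPC differences, so the size and direction of its shift are given as a description, with no test of the chromosome as a whole. Just inside the limit lay 2210016F16Rik at 7.75, Ppp1r3g at 7.76 and Slc34a1 at 7.80, and just outside it Rbm24 at 7.72, Zfp366 at 7.71 and 5033430I15Rik at 7.68. In 4 of the 407 genes the mean of 1 line lay under the limit: in MTT cells for Nrn1 and Ppp1r3g, and in MPC cells for Ero1b and 2210016F16Rik.

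Gene expression was read in 3 MTT and 3 MPC samples, each on its own Affymetrix Mouse Gene 1.0 ST array. MPC cells are a mouse pheochromocytoma line, from the catecholamine-making chromaffin cells of the adrenal medulla, that came from mice with a knock-out of NF1; MTT cells were derived from liver metastases of MPC cells, so that both groups share this origin and each is a single line. The methods describe the MTT arrays only, and all 6 samples carry the MTT line's growth text and a liver metastasis as their source, which leaves the titles and the cell type field to define the MPC group. Whether the samples of 1 line were separate cultures is not stated, and the p-values below then measure only the spread between these samples.

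The chromaffin origin was visible in both lines. Of 7 chromaffin markers measured, 6 lay above the limit, led by Th (13.48) and Dbh (13.01), while Pnmt, which turns noradrenaline into adrenaline, read 7.02. Among markers of other cells, 0 of 5 for hepatocytes and 0 of 3 for endothelium lay above the limit, against 1 of 4 for leukocytes, 2 of 4 for fibroblasts, 2 of 4 for adrenal cortex and 1 of 2 for Schwann cells, and none of these differed between the lines in limma's test. Of the chromaffin markers, Slc18a1, a vesicular monoamine transporter, was higher in MTT cells by 0.27 (adjusted p = 0.00424) and the granule protein Chgb lower, with a difference of -0.15 (adjusted p = 0.0233). The number of arrays limits the precision, and background in the signal compresses differences of dim genes.

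Most of the 407 genes were slightly higher in MTT cells. The median difference, MTT minus MPC on the log2 scale, was 0.18, which is 1.14-fold, with quartiles of 0.11 and 0.25, and 375 genes (92.1%) had a difference above 0. In limma's test with Benjamini-Hochberg adjustment over all 19937 genes, 242 of the 407 (59.5%) were higher at an adjusted p under 0.05, where 3.93% of all genes tested and 5.87% of all expressed genes were. Lower in MTT cells were 7 (1.72%), where 3.94% of all genes tested and 5.97% of all expressed genes were. In bulk RNA, a difference in every cell cannot be told apart from a larger one in some of the cells.

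All MTT arrays lay above all MPC arrays in 308 genes (75.7%), against 16.7% of all expressed genes. The opposite order held in 11 (2.70%), against 21.3%. The median deviation of the 407 genes from their own means over the 6 arrays was 0.10, 0.10 and 0.08 on MTT replicates 1, 2 and 3, and -0.09, -0.08 and -0.11 on MPC replicates 1, 2 and 3. Every array of a line thus lay on the same side. For the other expressed genes the same median stayed between -0.011 and 0.012. Over the 9 pairs of an MTT with an MPC array the median difference of the 407 genes was 0.15 to 0.22, and over the 6 pairs of arrays of 1 line it was 0.006 to 0.027 in size.

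The 11008 expressed genes outside chromosome 13 had a median difference of -0.01, with 44.7% above 0. Chromosome 19 stood on the other side, with a median of -0.11 over 379 expressed genes, 5 of them higher and 104 lower. The other 18 chromosomes had medians between -0.03 and 0.02. On chromosome 13 itself, the 325 genes under the limit on the level had a median of -0.01, and 7 of them were higher and 5 lower.

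**Figure D1:**
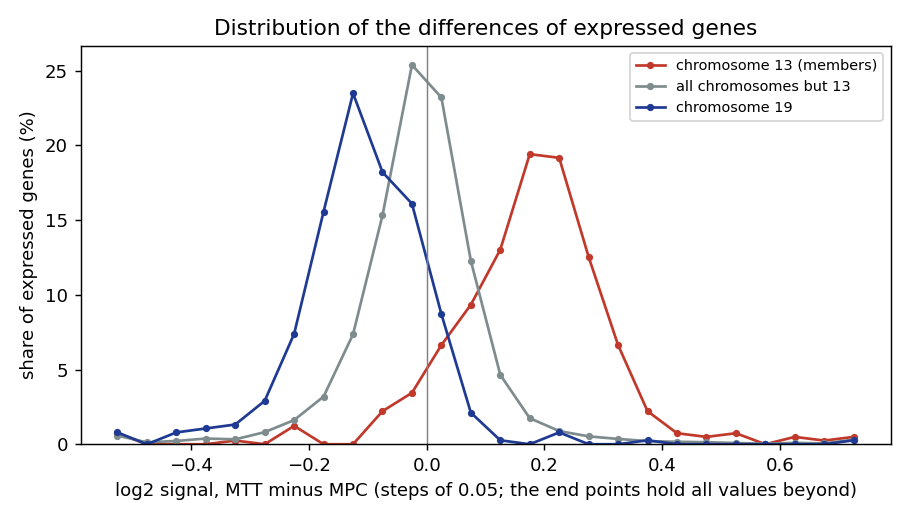
Share of expressed genes, in percent, by their difference between MTT and MPC cells (log2 signal, MTT minus MPC, in steps of 0.05), for chromosome 13, chromosome 19 and all chromosomes but 13 together (chromosome 19 included). The curve of chromosome 13 is shifted to the right by about its median of 0.18, and that of chromosome 19 to the left.

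The shift ran along the whole chromosome. In map order, cut into 10 blocks of 40 or 41 neighbouring genes, the block medians were 0.21 from Gdi2 to Epdr1, 0.11 from Sfrp4 to Sox4, 0.19 from Cdkal1 to Gfod1, 0.20 from Sirt5 to Nfil3, 0.21 from Ror2 to Ddx46, 0.22 from B230219D22Rik to Mterf3, 0.17 from Ptdss1 to Erap1, 0.21 from Cast to Wdr41, 0.19 from Zbed3 to Ppwd1 and 0.18 from Cenpk to Zfp131. No block was centred on 0. The lowest block holds all 19 expressed core and linker histones, and over its 22 other genes the median was 0.17, with 14 of them higher. Of 268 blocks of 38 to 43 neighbouring expressed genes on the other chromosomes, cut in the same way, the medians ran from -0.15 to 0.07. The longest unbroken run of neighbours with a difference above 0 spanned 51 genes, from Med10, a subunit of the Mediator complex, to the poly(A) polymerase Tent2.

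**Figure D2:**
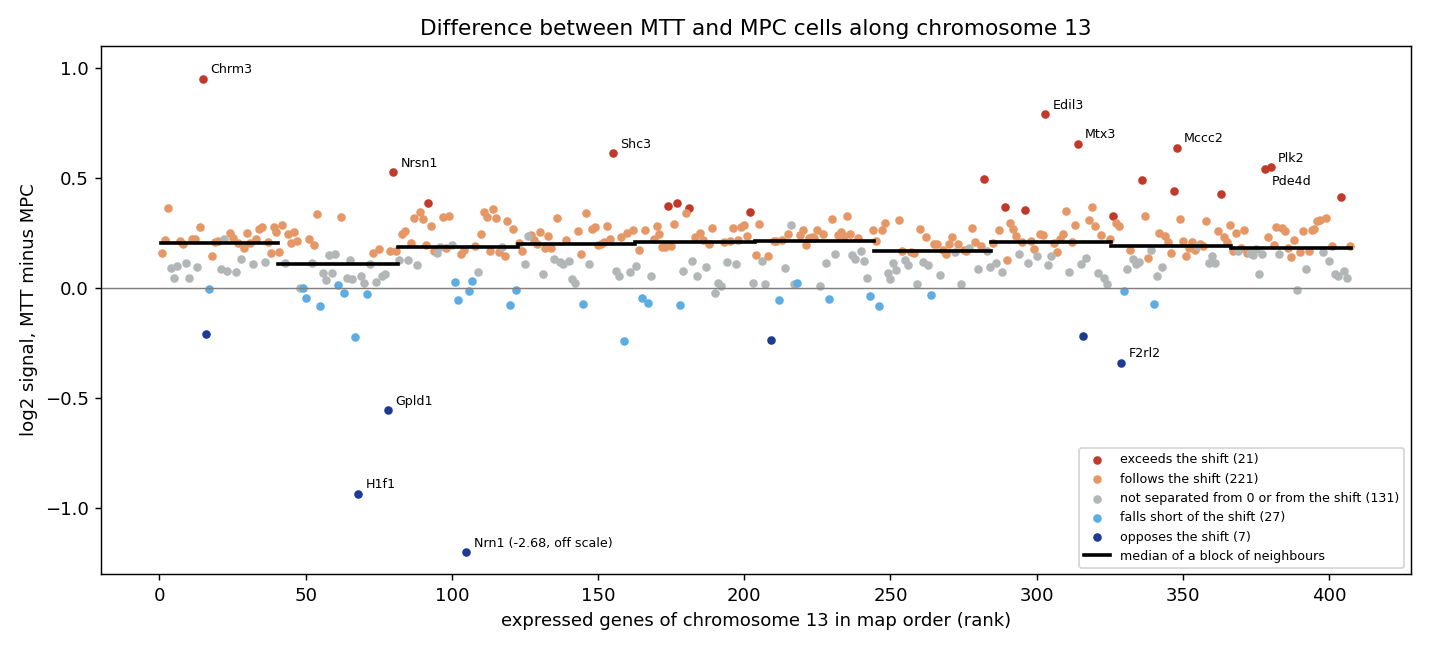
Log2 difference, MTT minus MPC, of each of the 407 expressed genes (points) against rank in map order on chromosome 13, coloured by how it stands to the shift; black lines are the medians of 10 blocks of neighbours. The block medians lie between 0.11 and 0.22, with single genes far above or below; Nrn1, at -2.68, is drawn at the lower edge.

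The difference depended on the level of the signal. From the limit to 9 on the log2 scale the median was 0.11 over 95 genes, with 31 higher. Between 9 and 10 it was 0.21 over 115 genes, between 10 and 11 0.22 over 103 genes, and between 11 and 12 0.19 over 67 genes, with 75, 78 and 46 genes higher. Above 12 it was again 0.11, over 27 genes with 12 higher. Beside the test against the chromosome's median described next, each gene was therefore also set against the median of its own range of level, and 17 of the 21 genes that exceed the shift did so there too.

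**Figure D3:**
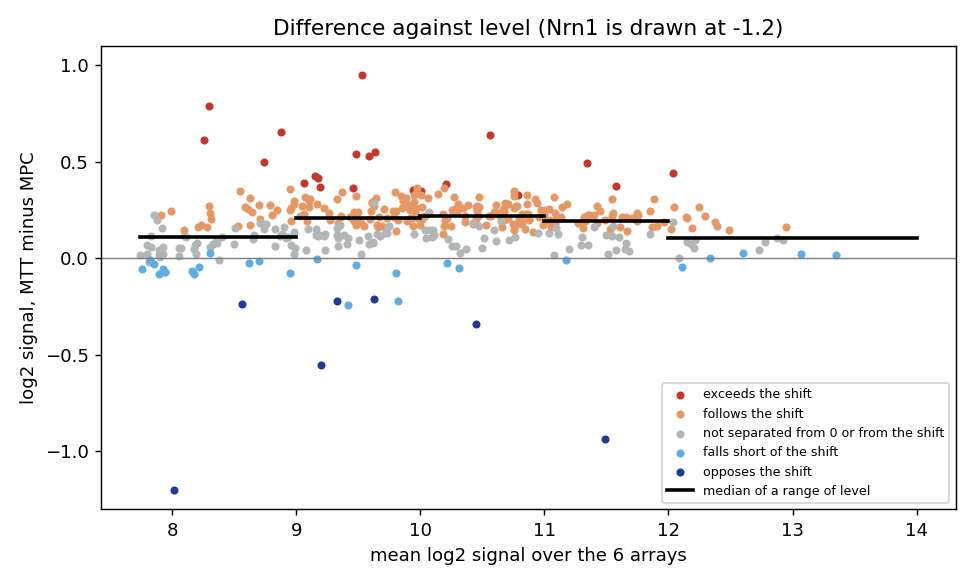
Log2 difference, MTT minus MPC, of the 407 genes against their mean log2 signal over the 6 arrays, coloured as along the chromosome; black lines are medians within ranges of level. The medians are 0.11 in the lowest and the highest range and 0.19 to 0.22 between them; Nrn1, at -2.68, is drawn at the lower edge.

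To ask which genes depart from the shift, each gene's difference was also tested with limma against the median of the expressed genes of its own chromosome. Past this test were 21 of the 407 genes above the median (5.16%) and 34 below it (8.35%), where 4.07% and 4.77% of all expressed genes were above and below the median of their own chromosomes. All 21 above were also higher than MPC cells and are called exceeding here. A further 221 genes (54.3%) were higher and not past the second test. They are called following, with differences of 0.13 to 0.37 and a median of 0.23, although missing that test does not show that they move by the same amount. The 7 lower genes oppose the shift, 27 (6.63%) fall short of it without being lower, and 131 (32.2%) were separated neither from 0 nor from the shift, with a median of 0.10. Within 0.1 of the median of 0.18 lay 263 genes (64.6%).

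The share of exceeding genes, 5.16%, lay near the 4.07% of all expressed genes above their own chromosome's median. The exceeding genes included receptors and signalling proteins. Chrm3, the M3 muscarinic acetylcholine receptor, read 10.08, 10.04 and 9.90 on the MTT arrays and 9.12, 9.05 and 9.0 on the MPC arrays. The lowest MTT array was thus well above the highest MPC array, and Chrm3 had the largest positive difference of the 407 genes, 0.95 (SE 0.05, 1.93-fold, limma adjusted p = 3.63e-05). Shc3, an adaptor of receptor tyrosine kinases found mainly in neurons, read 8.48, 8.65 and 8.57 against 7.96, 7.92 and 7.98, a difference of 0.61 (SE 0.05). Plk2, a polo-like kinase induced by stress and by neuronal activity, read 9.95, 9.91 and 9.88 against 9.40, 9.38 and 9.31, a difference of 0.55 (SE 0.04). Pde4d, which breaks down cAMP, read 9.73, 9.76 and 9.78 against 9.22, 9.22 and 9.19, a difference of 0.54 (SE 0.03). None of these groups of arrays overlapped, which also held for all 221 following genes and comes with being called on these arrays. The 3 probe sets of Pde4d gave differences of 0.14 to 0.55, and with their mean in place of the brightest the gene fell under the limit on the level.

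Of 21 expressed genes on the list of neuronal structure and cytoskeleton, 4 exceeded the shift. On that of peptides, amines and secretion, 1 of 17 did, beside 21 (5.16%) of all 407 genes. Receptors and signal relay held 3 exceeding genes of 28, and lysosome, proteases and protein turnover 3 of 25. These counts were not tested. Nrsn1, a vesicle membrane protein of neurons, read 9.86, 9.87 and 9.82 in MTT and 9.33, 9.28 and 9.35 in MPC cells, a difference of 0.53 (SE 0.03). Enc1, an actin-binding protein of the early nervous system, read 11.56, 11.61 and 11.60 against 11.04, 11.11 and 11.15, a difference of 0.49 (SE 0.04). Cartpt, the precursor of the CART neuropeptide, read 12.29, 12.27 and 12.22 against 11.80, 11.83 and 11.83, a difference of 0.44 (SE 0.03). These 3 genes kept their place above the median of the chromosome whichever array was left out. Gprin1, which promotes neurite growth, exceeded the shift at 0.39, Cltb, a clathrin light chain of coated vesicles, at 0.37 and Unc5a, a netrin receptor, at 0.36.

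The remaining exceeding genes had other roles. Edil3, a secreted matrix protein that binds integrins, read 8.77, 8.61 and 8.71 in MTT and 7.92, 7.88 and 7.92 in MPC cells, a difference of 0.79 (SE 0.05). Mtx3, a metaxin of the outer mitochondrial membrane, read 9.28, 9.21 and 9.13 against 8.56, 8.52 and 8.58, a difference of 0.66 (SE 0.05). Mccc2, a subunit of the carboxylase that acts in leucine breakdown, read 10.91, 10.88 and 10.86 against 10.32, 10.32 and 10.11, a difference of 0.64 (SE 0.06). The MPC arrays of Mccc2 were spread more widely than its MTT arrays, with an SD of 0.12 against 0.02, and did not overlap them. The zinc finger gene Zfp72 had a difference of 0.50, the co-chaperone Sgtb 0.43, Tmem267 0.42, the protease inhibitor Serpinb6a 0.39, the sulfatase Arsk 0.37, Lysmd3 0.35, Caml, which helps to insert proteins into the membrane of the endoplasmic reticulum, 0.35 and Zbed3, which binds Axin, 0.33. All 21 stayed higher in MTT cells whichever of the 6 arrays was dropped, but only Chrm3, Edil3, Mtx3, Mccc2, Shc3, Plk2, Pde4d, Nrsn1, Enc1 and Cartpt stayed past the test against the chromosome's median each time. The other 11 lost that test without at least 1 array, and Zbed3 lost it whichever of the 6 was left out.

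**Figure D4:**
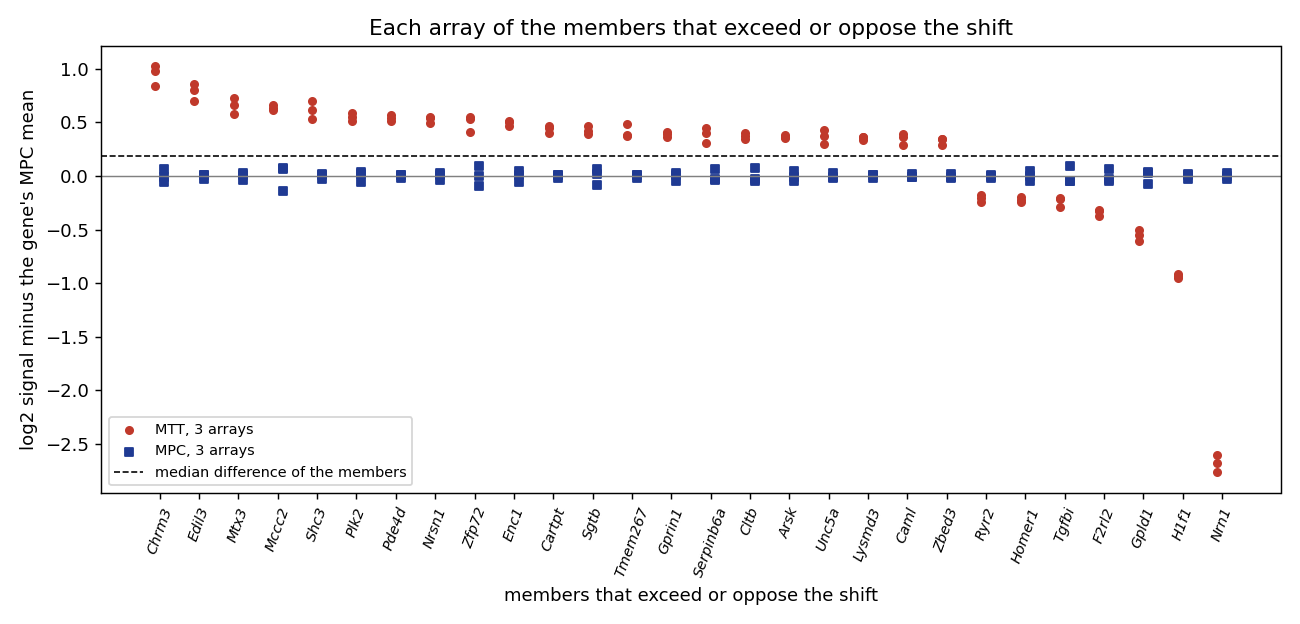
Log2 signal of each array minus the gene's MPC mean (MTT circles, MPC squares, 3 arrays each) for the 21 genes that exceed the shift and the 7 that oppose it, in order of their difference; the dashed line is the median difference of the 407 genes, 0.18. The MTT and MPC arrays do not overlap in any of the 28 genes, which were picked by tests on these same arrays.

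Opposing genes were few. Nrn1, neuritin, which promotes the growth of neurites, read 6.75, 6.68 and 6.60 on the MTT arrays and 9.38, 9.33 and 9.36 on the MPC arrays. Its difference was -2.68 (SE 0.05), but it passed the limit on the level only through its MPC arrays, so it had to differ, and at the dim MTT signal the size of the difference is compressed. Over the 403 genes with both lines above the limit, 242 were higher and 6 lower. H1f1, the linker histone H1.1, read 11.02, 11.04 and 11.002 against 11.93, 11.96 and 11.97, a difference of -0.94 (SE 0.03, adjusted p = 4.53e-06). Gpld1, a phospholipase that releases proteins from their GPI anchors, read 8.93, 8.97 and 8.88 against 9.51, 9.52 and 9.41, a difference of -0.55 (SE 0.04, adjusted p = 0.000233). In Nrn1, H1f1 and Gpld1, all MTT arrays were below all MPC arrays by several times the spread within a line.

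A receptor, a matrix protein and a pair of genes of calcium handling made up the rest. F2rl2, a thrombin receptor of the protease-activated family, read 10.25, 10.30 and 10.30 in MTT and 10.69, 10.60 and 10.58 in MPC cells, a difference of -0.34 (SE 0.04). Ryr2, a channel that releases calcium from internal stores, read 9.49, 9.56 and 9.53 against 9.72, 9.74 and 9.75, a difference of -0.21 (SE 0.03). Homer1, a scaffold that links receptors to such stores, read 9.21, 9.20 and 9.24 against 9.44, 9.49 and 9.39, a difference of -0.22 (SE 0.04, adjusted p = 0.0106). The matrix protein Tgfbi read 8.47, 8.39 and 8.47 against 8.63, 8.64 and 8.77, a difference of -0.24 (SE 0.05, adjusted p = 0.0211). The arrays of these 4 genes did not overlap, as in all 7 genes called lower on these same arrays. The call of Homer1 was lost without MTT replicate 2 (adjusted p = 0.0522). That of Tgfbi was lost whichever MTT replicate was left out, with an adjusted p of up to 0.085. With ordinary variances both calls were lost, and that of Tgfbi also with all probe sets in the fit.

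On the map, 11 of the 28 genes that exceed or oppose the shift had both expressed neighbours within 0.1 of the median, and 4 of the 7 opposing genes lay beside a gene that falls short. The gene before Nrn1, Fars2, a mitochondrial phenylalanyl-tRNA synthetase, had a difference of 0.17, and the gene after it, Rreb1, a zinc finger factor of RAS signalling, one of -0.02. Chrm3, with 0.95, lay next to Ryr2, with -0.21. F2r, the first thrombin receptor, followed the shift at 0.28 beside F2rl2 at -0.34. Gprin1, at 0.39, lay beside the beta-synuclein gene Sncb at -0.08. The 42 neighbours of exceeding genes had a median of 0.19, close to that of the chromosome, and 2 of them exceeded the shift: Cartpt and Mccc2, which are neighbours of each other. Of the 14 neighbours of opposing genes, with a median of 0.12, 4 fell short of the shift and 0 opposed it.

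The 27 genes that fall short of the shift had differences from -0.24 to 0.03, and 25 of them lay within 0.1 of 0. In 4 of the 27 all MTT arrays were below all MPC arrays, an order that held in 21.3% of all expressed genes. Among the 25 were Mtr, the methionine synthase (9.16 in MTT and 9.17 in MPC cells), Hnrnpk, an abundant RNA-binding protein (13.08 and 13.06 in its brightest probe set), Ssr1, a subunit of the translocon-associated complex (12.62 and 12.59), and the synaptic vesicle protein Sv2c (11.17 and 11.18). The dimmer probe sets of Hnrnpk gave differences of 0.07 and 0.09. Receptors of amines were among the 25, with the dopamine receptor Drd1 at 8.19 and 8.24 and the histamine receptor Hrh2 at 8.13 and 8.19. Gadd45g, a stress-response gene, read 9.34, 9.32 and 9.24 on the MTT arrays and 9.68, 9.47 and 9.47 on the MPC arrays, and its difference of -0.24 missed the test against 0 (adjusted p = 0.0585). The median level of the 27 genes was 8.95, against 10.34 for the following genes. Ssr1, Drd1, Hrh2 and Hnrnpk were named after their values were seen.

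Of the 14 lists of genes described next, the histones had the lowest median. Of 19 expressed core and linker histones, 1 was higher, 1 lower and 17 were not called, with a median of 0.04, against -0.01 over all expressed genes. The 5.26% of histones that were higher lay near the 5.87% of all expressed genes. H2bc4 was the higher gene, with a difference of 0.32 (10.91 ± 0.03 in MTT and 10.59 ± 0.09 in MPC cells, SD, n = 3), and H1f1 the lower one. The linker histones H1f2 and H1f3 had differences of 0.13 and 0.15, and the core histone H2ac4 one of -0.22 (adjusted p = 0.251). Copies of the core histone genes are nearly identical, so their probe sets can share signal and the values of single core histones are uncertain. How far this holds for the linker histones was not tested. Without the 19 histones the median of the other 388 genes was 0.19, with 241 higher and 6 lower.

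The other lists of genes, written from what the genes are known to do, had medians between 0.13 and 0.25, beside 0.18 for all 407. The share of higher genes was 50% to 76.0% in them, beside 59.5% of the 407 and 5.87% of all expressed genes, so the counts below are a description of the lists and single out none of them. Transcription factors counted 9 higher, 0 lower and 8 not called of 17, with a median of 0.16. Isl1, a LIM homeodomain factor of sympathetic and endocrine cells, read 11.73, 11.71 and 11.66 on the MTT arrays and 11.41, 11.39 and 11.38 on the MPC arrays, without overlap. The zinc finger factor Zfp367 had a difference of 0.33 and the cell cycle factor E2f3 one of 0.24. Of 24 zinc finger genes, which overlap this list, 14 were higher and 10 not called, with a median of 0.17. Of 13 chromatin regulators, 9 were higher and 4 not called, with a median of 0.21, among them the histone reader Zmynd11 (0.28), the demethylase Phf2 (0.26), the methyltransferase Nsd1 (0.25) and Jarid2, a partner of Polycomb complex 2 (0.22).

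Secretion and neuronal structure held both followers and departures. Of 17 genes of peptides, amines and secretion, 10 were higher, 2 lower and 5 not called, with a median of 0.21. The exocyst subunits Exoc2 and Exoc3 had differences of 0.32 and 0.27, Bloc1s5, which acts in the making of lysosome-related organelles, 0.32 and the secretory carrier protein Scamp1 0.28. Of 21 genes of neuronal structure and cytoskeleton, 14 were higher, 1 lower and 6 not called, with a median of 0.18. The dynein adaptor Bicd2 followed at 0.27.

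Receptors and signal relay counted 16 higher, 1 lower and 11 not called of 28, with a median of 0.21. The PI3-kinase subunit Pik3r1 had a difference of 0.31 (12.04 ± 0.01 against 11.73 ± 0.07, SD, n = 3), the transcription-linked kinase Cdk13 one of 0.28 and Il6st, the signalling subunit of interleukin-6 receptors, one of 0.27. Matrix and adhesion held 6 expressed genes, 4 higher, 1 lower and 1 not called, with a median of 0.24, and 12 more were under the limit. The integrin subunit Itga1 followed at 0.26, the adhesion protein Ninj1 at 0.34 and the proteoglycan Spock1 at 0.22.

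Of 34 genes of RNA, ribosome and nuclear transport, 24 were higher, 0 lower and 10 not called, with a median of 0.18, all 34 differences above 0 and 2 genes falling short. Examples are Bdp1, a subunit of RNA polymerase III factor TFIIIB (0.31), the rRNA methyltransferase Dimt1 (0.26), the helicase Dhx29 of translation initiation (0.22) and the ribosome rescue factor Pelo (0.27). Of 25 genes of lysosome, proteases and protein turnover, 19 were higher and 6 not called, with a median of 0.25, and 3 exceeded the shift and 3 fell short. Txndc5, a disulfide isomerase, had a difference of 0.35 and Arsb, a lysosomal sulfatase, one of 0.31 (both named after their values were seen), and the cargo receptors Tmed9 and Lman2 had 0.29 and 0.27.

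Mitochondria and energy counted 15 higher, 0 lower and 13 not called of 28, with a median of 0.17. The serine transporter Sfxn1 had a difference of 0.27, the phosphofructokinase Pfkp 0.20 and the desuccinylase Sirt5 0.20. The call of Pfkp was lost without MTT replicate 2 (adjusted p = 0.0513) and that of Sirt5 whichever MTT replicate was left out (up to 0.0647). Sdha, the catalytic subunit of succinate dehydrogenase, whose subunits are known tumour suppressors in pheochromocytoma, read 12.84, 12.82 and 12.81 in MTT and 12.74, 12.74 and 12.74 in MPC cells. Its arrays did not overlap, but its difference of 0.08 missed the threshold (adjusted p = 0.16, with an unadjusted 95% interval of 0.014 to 0.15). Sdha and Tert, the catalytic subunit of telomerase (0.16, adjusted p = 0.0883), were named after their values were seen.

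Of 24 genes of cell cycle and DNA repair, 13 were higher and 11 not called, with a median of 0.18. The mismatch repair gene Msh3 had a difference of 0.24, Ccnh, the cyclin of the CDK-activating kinase, 0.24 and Rmi1, which acts with the BLM helicase, 0.26. Wrnip1 had a difference of 0.31 in its brightest probe set but 0.01 in the other. Sterol and lipid metabolism held 8 expressed genes, 4 higher and 4 not called, with a median of 0.15. Mboat1, a lysophospholipid acyltransferase, had a difference of 0.26, and Sptlc1, a subunit of the enzyme that starts sphingolipid synthesis, one of 0.18, whose call held only where MPC replicate 3 was the array left out (adjusted p up to 0.086). The folate and methionine cycle held 2, Mtrr, which reactivates methionine synthase and followed at 0.27, and Mtr itself, which fell short, so that their median was 0.13. The call of Mtrr was lost without MTT replicate 1 or 2 (adjusted p up to 0.0723).

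**Figure D5:**
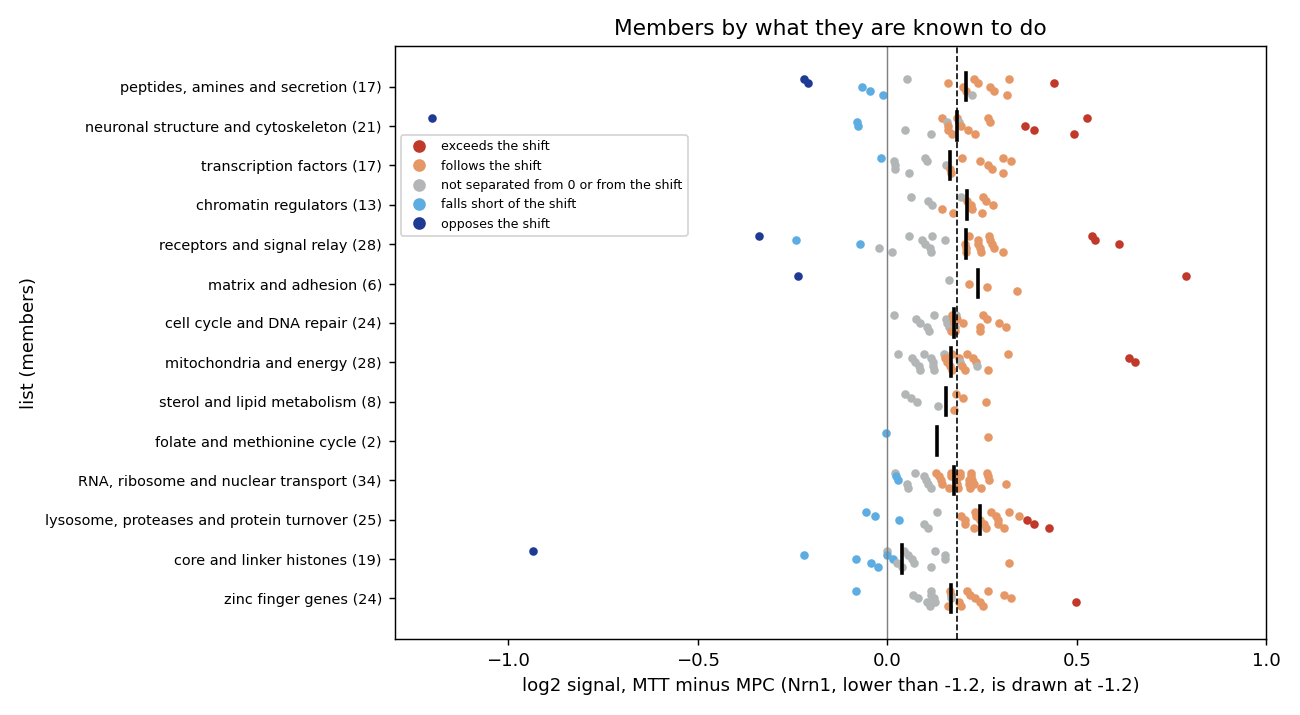
Log2 difference, MTT minus MPC, of the genes of 14 lists (a point per gene, coloured by how it stands to the shift; black bars are list medians; the dashed line is the median of all 407 genes; the number of expressed genes of each list stands in parentheses). The list medians lie between 0.13 and 0.25 except for histones, at 0.04.

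Among followers, the largest differences were those of Lhfpl2 (0.37), the ubiquitin ligase adaptor Asb13 (0.36) and the transporter Slc35b3 (0.36). Next came Ankrd34b (0.35), Txndc5 (0.35) and Gmds, an enzyme of GDP-fucose synthesis (0.34). These 6 were named after their values were seen, and the call of Lhfpl2 was lost without MTT replicate 1 (adjusted p = 0.0513). Of the 221 followers, 109 kept their call whichever array was dropped, as did 130 of all 242 higher genes. Leaving out MTT replicate 1 or 2 lowered the count of higher genes from 242 to 154 and 143.

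Small RNA genes are shown for their products, since their precursors are read by probe sets of the array and were named after their values were seen. Mirlet7d read 8.97, 8.96 and 8.91 on the MTT arrays and 8.77, 8.82 and 8.88 on the MPC arrays, a difference of 0.12 (adjusted p = 0.108). Mir7-1 read 9.72, 9.64 and 9.50 against 9.40, 9.38 and 9.35, a difference of 0.24 (adjusted p = 0.0362), and this call was lost on dropping any array but MTT replicate 3. In neither gene did the arrays of the lines overlap. The array reads the transcribed region and not the mature miRNA, and Mir7-1 is known to lie within the gene Hnrnpk, which had differences of 0.02 to 0.09 over its 3 probe sets. The mature sequences, from RefSeq for GRCm38.p6 and with bases 2 to 8, the seed, in capitals, all lie on the minus strand: let-7d-5p at chr13:48536078-48536099, let-7d-3p at chr13:48536024-48536045, miR-7a-5p at chr13:58392841-58392863 and miR-7a-1-3p at chr13:58392800-58392821. Their 4 seeds differ from each other.
let-7d-5p: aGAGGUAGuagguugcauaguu
let-7d-3p: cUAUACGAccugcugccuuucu
miR-7a-5p: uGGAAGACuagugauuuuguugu
miR-7a-1-3p: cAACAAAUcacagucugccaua

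Promoters were read from the RefSeq table of GRCm38.p6, from 250 bases before to 50 bases after the start of each gene, which held 358 of the 407 genes. The median GC content was 62.0%, against 52.7% over all 27025 promoters. Searched on both strands, the GC box GGGCGG was found in 63.7% of the 358 and 35.9% of all, the CCAAT box CCAAT in 39.4% and 37.9%, the TATA box TATAAA in 7.26% and 14.2%, the cAMP response element TGACGTCA in 3.91% and 1.88% and the H1 box AAACACA in 5.03% and 7.14%. None of these motifs contains another, though neighbouring ones can share letters at their ends. The members were chosen for being expressed, and the table of all promoters was not, so the shares are not of like sets.

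The cAMP response element lay in 4 of the 17 promoters found for exceeding genes, those of Cltb, Zfp72, Cartpt and Plk2, in 3 of the 198 of following genes, in 1 of the 23 of genes that fall short, in 0 of the 6 of opposing genes and in 6 of the 114 of the others. These are counts of letters in a fixed window and were not tested. The promoters of Plk2 (chr13:110394794-110395093, plus strand) and Cartpt (chr13:99900634-99900933, minus strand) are shown as those of a kinase and a neuropeptide that exceed the shift and hold the element, at 62 and 112 bases before the start, and that of H1f1 (chr13:23763418-23763717, plus strand) because it is the promoter of the histone that opposes the shift. Capitals mark the cAMP response element, GC boxes on either strand and, in H1f1, a CCAAT box and a TATA box.
Plk2: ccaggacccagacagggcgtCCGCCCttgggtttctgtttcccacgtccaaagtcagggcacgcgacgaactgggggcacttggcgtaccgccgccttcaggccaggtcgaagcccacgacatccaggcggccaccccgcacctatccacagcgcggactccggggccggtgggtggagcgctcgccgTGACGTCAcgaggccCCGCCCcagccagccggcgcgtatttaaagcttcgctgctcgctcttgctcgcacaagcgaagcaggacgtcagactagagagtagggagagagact
Cartpt: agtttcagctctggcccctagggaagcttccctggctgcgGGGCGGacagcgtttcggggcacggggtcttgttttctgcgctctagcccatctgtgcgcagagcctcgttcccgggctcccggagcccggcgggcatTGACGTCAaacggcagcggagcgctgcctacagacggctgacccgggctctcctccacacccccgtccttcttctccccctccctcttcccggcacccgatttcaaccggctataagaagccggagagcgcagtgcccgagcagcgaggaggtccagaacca
H1f1: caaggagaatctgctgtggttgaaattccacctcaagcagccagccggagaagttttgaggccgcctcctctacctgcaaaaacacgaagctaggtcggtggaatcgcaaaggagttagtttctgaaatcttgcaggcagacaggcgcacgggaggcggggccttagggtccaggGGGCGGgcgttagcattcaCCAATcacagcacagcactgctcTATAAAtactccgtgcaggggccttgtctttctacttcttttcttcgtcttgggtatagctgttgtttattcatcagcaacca
In H1f1 the GC box lies 75, the CCAAT box 56 and the TATA box 33 bases before the start.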

How the data were processed

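The deposited values are log2 signals that the authors obtained by RMA, which subtracts background, equalizes the distribution of the arrays and combines the probes of a probe set. RMA and Affymetrix Expression Console stand in the submitters' processing notes, and their versions and the genome build were not given in the sources used here. The 34760 probe sets were named through the platform annotation. Of 21640 with 1 gene symbol, 21553 matched the RefSeq table of GRCm38.p6 by gene ID, which was used for names, chromosomes and map order. The brightest probe set was kept for 954 genes with several. MTT and MPC samples were grouped by title.

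Differences were tested two-sided in R 4.3.3 with limma 3.58.1 (lmFit, eBayes), with Benjamini-Hochberg adjustment over 19937 genes and a threshold of 0.05, also against the median of the expressed genes of each gene's own chromosome as a fixed offset. The fits were also run on simulated data with independent noise and a uniform shift shared by the chromosome 13 genes. The real shift varied with the level of the signal, which the simulated data did not include. Python 3.11.15 and matplotlib 3.10.9 served for the figures. In the main fit, replicate numbers were not used to pair the samples.

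The members, the 14 lists and the tests were chosen with earlier results of these data known, and some list members were moved or dropped for their function after values had been seen. Named are the largest differences, the genes that exceed or oppose the shift, up to 6 members per list with the smallest p, the extremes of each block, neighbours on the map and genes at the limit, and other genes where the text says so. Alternatives changed the variances (ordinary or with a trend), added the replicate block, averaged probe sets, fitted only expressed genes or every probe set, and used cyclic loess, centring outside chromosomes 13 and 19, other limits on the level and leaving out each array. The human arrays and the drug screen of the study were not analysed here.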

Additional observations from a re-analysis of the deposited data

How the results depend on the processing

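The median difference of 0.18 kept its direction in every alternative run and stayed between 0.18 and 0.20. It was highest, 0.20, over genes with a mean above 9, where 18 fell below the chromosome's median. Counts depended on how the spread was estimated. With ordinary variances (a 2-group ANOVA; the methods name an ANOVA without its groups), 120 genes were higher, 10 above the chromosome's median and 13 below it, and with all probe sets in the fit 130, 10 and 12. With a mean-variance trend 38 were above the chromosome's median and 59 below it, and with only genes above the median level in the fit 36 and 66. Leaving out 1 array gave 143 to 190 higher genes, 5 to 7 lower ones, 12 to 17 above the chromosome's median and 13 to 22 below it, with a median of 0.18 to 0.20. The replicate block gave 229 higher and 8 lower genes, of which 223 higher genes were shared, as were 19 of the 21 exceeding and all 7 opposing genes. The deviations of same-numbered samples correlated at 0.12, 0.07 and 0.25, each sample correlating best with its own number, which is a hint from the data and not from the design. Cyclic loess gave 254 higher genes and centring on genes outside chromosomes 13 and 19 gave 237. Leaving out the histones, or using the median of a gene's own range of level, were chosen after seeing the data. Among genes named near 0, the sign turned for Mtr (0.0041 with cyclic loess and with the centring, -0.021 to 0.014 without 1 array), Rreb1 (-0.051 to 0.019) and Sv2c (-0.034 to 0.010). Of 90 named genes, 20 lost their call with ordinary variances, 8 with all probe sets in the fit and 10 without at least 1 array. Not every gene named above is among these 90. Genes named for their place on the map that lost their call without at least 1 array include Gdi2, Sfrp4, Sox4, Ptdss1, Med10 and Cast. The causes were not tested.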

Other observations

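Of the 407 genes, 30 had several probe sets, and in 2 of them, Nsa2 and Sema4d, the probe sets differed in sign. Nsa2, which acts in ribosome assembly, had differences from -0.01 to 0.16 over 4 probe sets, and the brighter probe set of Sema4d, a semaphorin, had 0.23 against -0.07 in the dimmer one. Whether such probe sets read different transcripts was not tested.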
